A study of Mus musculus with 12 samples.

Results

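Expression of 10 genes of the prostaglandin, leukotriene and related lipoxygenase routes was followed in mouse gingiva with and without a ligature around a molar. The genes, Ptgs1, Ptgs2, Ptges, Hpgd, Alox5, Alox5ap, Alox15, Alox12b, Lta4h and Ltc4s, were chosen by name for their roles in these routes and were found by symbol in the count table, which held 21965 genes. All 10 passed the filter on low counts, which left 15046 genes. The RNA came from gingival tissue of mice under 12 weeks of age, with 3 mice and 3 libraries in each of 4 groups. WT naive and CybbKO naive mice had no ligature. WT ligated and CybbKO ligated mice carried a silk thread at a maxillary molar for 8 days before the tissue was taken, and the study used these groups to ask how a lack of Nox2 alters the inflamed oral mucosa. WT mice were labelled C57BL/6, and the study's methods name them C57BL/6J. CybbKO mice, labelled Cybb-/-, lack a working Cybb in every cell, and with it the catalytic part of the phagocyte oxidase Nox2.

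Library totals ran from 27958819 to 42613423 counts. Krt13, a keratin of oral epithelium, was the most abundant gene of the 8 epithelial markers checked, whose summed level was 70090 to 129700 CPM, the usual depth-scaled count, in every library, so the tissue label was borne out by its defining genes. Cybb itself had 5.06 ± 0.758 CPM (SD, n = 3) in WT naive and 12.1 ± 3.43 CPM (SD, n = 3) in WT ligated libraries. It had 47.9 ± 7.56 CPM (SD, n = 3) in CybbKO naive and 57.0 ± 6.31 CPM (SD, n = 3) in CybbKO ligated libraries. The targeted gene was higher, not lower, in every library labelled CybbKO, at 41.6 to 63.7 CPM against 4.19 to 15.2 CPM in WT libraries. Its level thus splits the libraries as they are labelled, but counts over the whole gene cannot show that Cybb was lost. WT naive replicate 3 stood apart by its mucous gland genes, led by Muc5b, with a summed level of 29060 CPM against 62.8 and 2745 CPM in the other WT naive libraries. In bulk tissue, fewer cells of a type and less RNA per cell cannot be told apart.

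Prostaglandins and leukotrienes are short-lived lipid mediators made from arachidonic acid that phospholipases release from membranes. The cyclooxygenases Ptgs1 and Ptgs2 turn it into prostaglandin H2, from which Ptges makes prostaglandin E2, a mediator of pain, vasodilation and bone resorption in inflamed periodontal tissue. Hpgd inactivates prostaglandin E2. Alox5, helped by its activating protein Alox5ap, starts leukotriene synthesis in leukocytes. Lta4h then makes leukotriene B4, which attracts neutrophils, and Ltc4s makes the cysteinyl leukotrienes. Alox15 is a second lipoxygenase of leukocytes and epithelia. Alox12b is a lipoxygenase of keratinocytes that acts on the linoleate of ceramides to build the epithelial barrier, and does not make leukotrienes.

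Both cyclooxygenases make the same product, and textbooks describe Ptgs1 as the constitutive and Ptgs2 as the inducible enzyme. Their promoter sequences are shown because the transcripts of this pair behaved differently after ligation. Each runs from 250 bases before to 30 bases after the annotated start, in the RefSeq promoter table of GRCm38.p6. Ptgs2 lies at chr1:150099781-150100060 and Ptgs1 at chr2:36230176-36230455, both on the plus strand. Capitals mark matches to 5 motifs searched on both strands, namely TTGCGCAA for the C/EBP palindrome, CACGTG for the E-box, TGACGT for the cyclic AMP response element half-site, TATAAA for the promoter box of that name and GGGCGG for the GC box.
Ptgs2: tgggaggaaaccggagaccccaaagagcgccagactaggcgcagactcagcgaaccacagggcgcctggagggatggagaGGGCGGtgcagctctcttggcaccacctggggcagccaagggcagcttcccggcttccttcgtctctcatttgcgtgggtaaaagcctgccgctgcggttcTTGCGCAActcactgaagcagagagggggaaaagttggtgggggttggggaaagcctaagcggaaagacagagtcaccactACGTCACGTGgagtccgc
Ptgs1: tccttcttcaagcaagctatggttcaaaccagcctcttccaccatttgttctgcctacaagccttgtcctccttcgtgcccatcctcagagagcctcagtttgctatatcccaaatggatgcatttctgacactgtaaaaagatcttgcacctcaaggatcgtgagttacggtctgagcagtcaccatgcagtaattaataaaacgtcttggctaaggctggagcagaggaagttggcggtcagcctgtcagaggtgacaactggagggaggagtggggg

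The Ptgs2 window held 4 of the 5 motifs and the Ptgs1 window held 0. In Ptgs2 the GC box began 170 bases and the C/EBP palindrome 69 bases before the start. The half-site, read on the minus strand, began at base 13 from the start and overlapped the E-box, which began at base 17, by 2 bases. Of all 32851 promoter windows of this length in the table, 0.18% held the C/EBP palindrome, 6.79% the E-box, 7.26% the half-site, 13.1% the TATA box and 34.7% the GC box. The matches describe letters only, and no factor was measured at either promoter.

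Ligation was accompanied by more Ptgs2 and Alox5ap and, less securely, by less Alox15. With both genotypes in one contrast, edgeR's quasi-likelihood test called 3 of the 10 genes at an adjusted p under 0.05, against 24.4% of all genes tested. Ptgs2 and Alox5ap rose, beside 14.7% of all genes, and Alox15 fell, beside 9.66%. At an unadjusted p under 0.05 there were 8 of the 10, against 37.2%, and DESeq2 called 5, against 24.9%. In libraries labelled CybbKO alone, 2 of the 10 were called, Ptgs2 and Alox5ap, against 13.0% of all genes. Both rose, beside 9.95% of all genes, and none fell, beside 3.04%. There were 5 at an unadjusted p under 0.05, against 27.7%, and 3 called by DESeq2, against 15.4%. Naive and ligated libraries did not overlap for 5 of the 10, against 31.4%. In WT alone edgeR called 0 of the 10, against 3.2% of all genes, with 4 at an unadjusted p under 0.05, against 19.9%, and DESeq2 called 2, Alox5ap and Alox15, against 7.56%. There the libraries did not overlap for 3 of the 10, against 24.9%. With only 10 genes these shares are a description, and none is read as particular to them. Their median log2 fold change over both genotypes was -0.17, beside -0.03 over all genes tested, with 4 genes higher and 6 lower. Scaling by library size alone moved the median of all genes by up to 0.11 on the log2 scale. It changed the split over both genotypes from 2215 genes higher and 1453 lower to 2628 and 726, and in WT from 348 and 133 to 477 and 68.

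**Figure D1:**
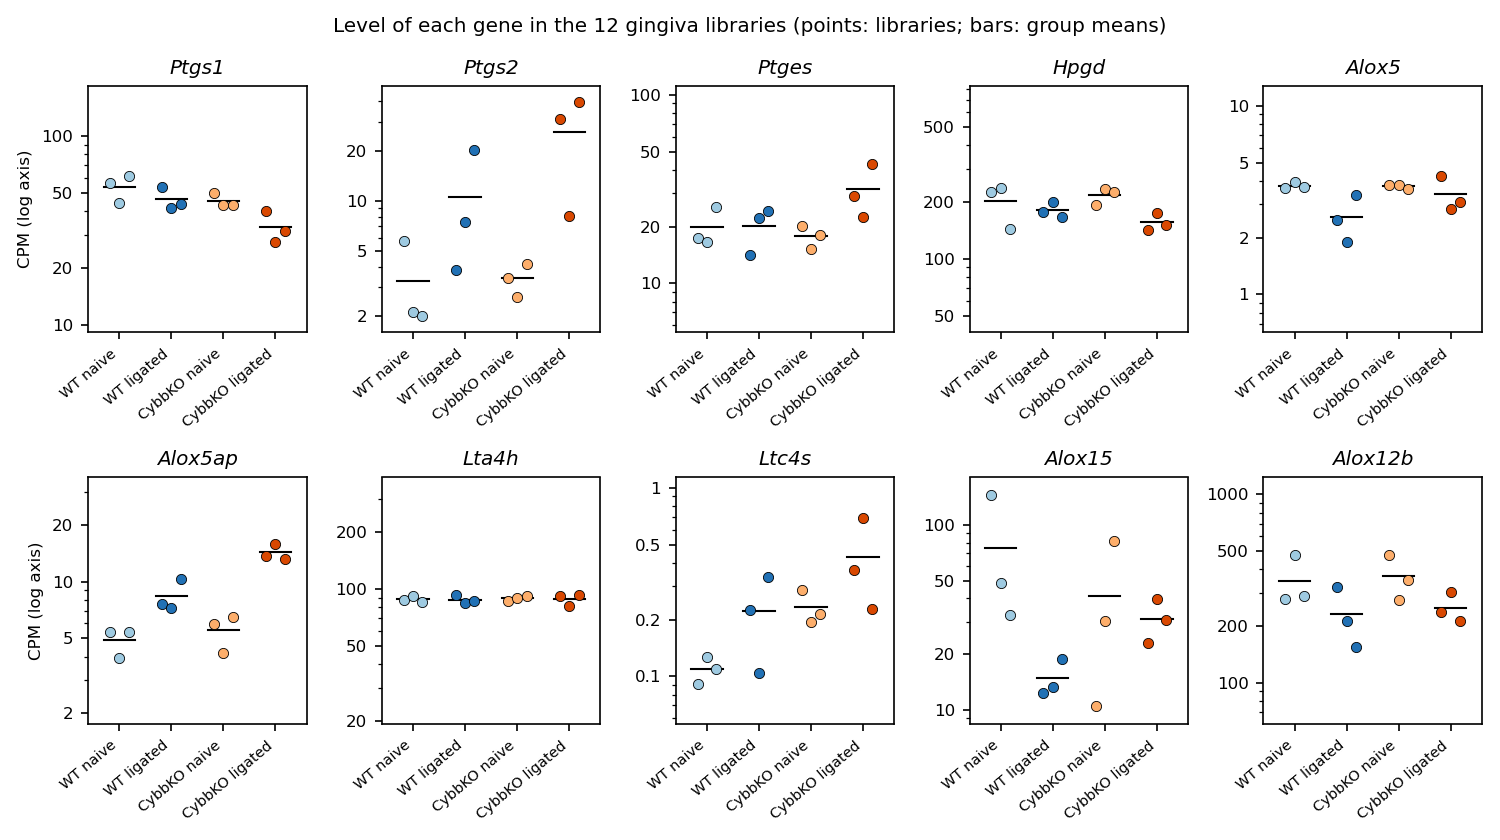
Level of each of the 10 genes in every library, in CPM on a log axis that differs between panels, with points for libraries and bars for the 4 group means (n = 3 each). The 3 CybbKO ligated libraries lie above all others for Alox5ap, at 13.2 to 15.9 CPM, while Lta4h stays between 80.7 and 93.2 CPM throughout.

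Per length of transcript, in CPM per kilobase of merged exons (RPKM), the genes spanned a wide range of levels in naive WT gingiva. Alox12b had 143 ± 46.0 and Hpgd 120 ± 30.2 RPKM (SD, n = 3), the highest of the 10, and their libraries overlapped. Alox15 (30.6 ± 24.5 RPKM), Lta4h (14.4 ± 0.624 RPKM) and Ptgs1 (13.9 ± 2.28 RPKM) followed (SD, n = 3), and neighbours among these overlapped too. Ptges had 5.05, Alox5ap 3.46, Alox5 0.919, Ptgs2 0.719 and Ltc4s 0.108 RPKM on average. Alox5 and Ptgs2 overlapped, and the other neighbours in this lower part did not. In CybbKO ligated libraries the top and bottom were held by the same genes, Alox12b and Hpgd at 103 and 92.9 RPKM and Ltc4s at 0.424 RPKM. Between them Lta4h, Alox15, Alox5ap, Ptgs1, Ptges and Ptgs2 ran from 14.5 down to 5.73 RPKM, and neighbours in this run overlapped. Alox5, at 0.826 RPKM, came after Ptgs2 and did not overlap it. Levels per length depend on the gene model: with the longest transcript as the length, the mean over the 12 libraries was 27.4 RPKM instead of 14.5 for Lta4h and 15.6 instead of 11.5 for Ptgs1.

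Ptgs2, the inducible cyclooxygenase, showed the largest rise of the 10. The gene (ENSMUSG00000032487) lies on the plus strand of chromosome 1, from 150100031 to 150108227 of GRCm38. Its level was 5.76, 2.12 and 2.00 CPM in WT naive and 3.43, 2.64 and 4.18 CPM in CybbKO naive libraries. It was 3.81, 7.43 and 20.5 CPM in WT ligated and 31.1, 8.05 and 39.6 CPM in CybbKO ligated libraries. All 3 CybbKO ligated libraries lay above every naive library, while the lowest WT ligated library lay below the highest WT naive one. Over both genotypes Ptgs2 rose 4.95-fold (log2 fold change 2.31, standard error 0.48, adjusted p = 0.00589). It rose 7.69-fold in libraries labelled CybbKO (log2 2.94, standard error 0.70, adjusted p = 0.0182). In WT its log2 fold change was 1.67 (standard error 0.68, adjusted p = 0.193), which did not pass. The call over both genotypes held with each of the 12 libraries left out, with adjusted p-values from 0.00157 to 0.0199. The call in libraries labelled CybbKO was lost without CybbKO ligated replicate 1 (adjusted p = 0.0593) or 3 (0.0681) and without CybbKO naive replicate 1 (0.0608), 2 (0.0715) or 3 (0.0539). The WT difference shrank to 0.76 when WT ligated replicate 3 was left out and grew to 2.35 when WT naive replicate 1 was.

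Ptgs1, the constitutive cyclooxygenase, was not called by edgeR with all libraries, and its values differed in the opposite direction to those of Ptgs2. The gene (ENSMUSG00000047250) lies on the plus strand of chromosome 2, from 36230426 to 36252272. It had 56.4, 44.0 and 61.1 CPM in WT naive and 53.6, 41.4 and 43.8 CPM in WT ligated libraries, which overlapped. It had 50.1, 43.03 and 43.04 CPM in CybbKO naive and 39.9, 27.5 and 31.3 CPM in CybbKO ligated libraries. The CybbKO ligated libraries were the 3 lowest of the 12. The log2 fold change was -0.34 over both genotypes (standard error 0.12, adjusted p = 0.0589) and -0.47 in libraries labelled CybbKO (standard error 0.17, adjusted p = 0.0991). Neither passed in edgeR, and DESeq2 called the first (adjusted p = 0.0368). EdgeR also called it without CybbKO ligated replicate 1 (adjusted p = 0.0337) or WT naive replicate 2 (0.0385).

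The balance of the cyclooxygenase transcripts moved toward Ptgs2. For each count of Ptgs1, WT naive libraries had 0.102, 0.0485 and 0.0331 counts of Ptgs2 and CybbKO naive libraries had 0.0688, 0.0616 and 0.0974. WT ligated libraries had 0.0713, 0.1799 and 0.468, and CybbKO ligated libraries 0.780, 0.293 and 1.27. In 1 ligated library Ptgs2 thus outnumbered Ptgs1. The log2 ratio was 2.44 higher in ligated than in naive libraries, a 5.43-fold shift (exact two-sided permutation test within genotypes over 400 arrangements, p = 0.01, where 0.005 is the smallest possible). It was higher by 1.73 in WT, where the shift was 1.05 without WT ligated replicate 3, and by 3.15 in libraries labelled CybbKO. Between the genotypes in ligated tissue it differed by 1.87 (exact permutation test, p = 0.2, where 0.1 is the smallest possible for 3 against 3).

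**Figure D2:**
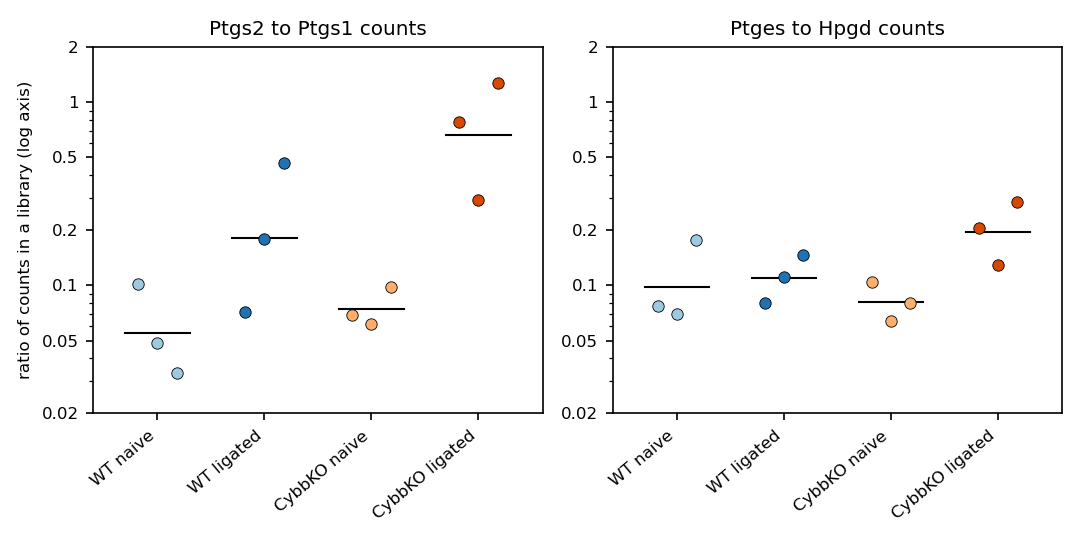
Ratio of Ptgs2 to Ptgs1 counts (left) and of Ptges to Hpgd counts (right) in each library, on log axes, with points for libraries and bars for geometric group means (n = 3 each). The Ptgs2 to Ptgs1 ratio runs from 0.0331 to 0.102 in naive and from 0.0713 to 1.27 in ligated libraries.

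Ptges, the inducible terminal synthase of prostaglandin E2, and Hpgd, which degrades it, pointed in opposite directions in libraries labelled CybbKO without passing the edgeR test. Ptges (ENSMUSG00000050737; minus strand of chromosome 2, 30889471 to 30929863) had 20.1, 15.2 and 18.03 CPM in CybbKO naive and 29.1, 22.6 and 43.2 CPM in CybbKO ligated libraries. These groups did not overlap (log2 fold change 0.83, standard error 0.27, adjusted p = 0.0643). DESeq2 called this difference (adjusted p = 0.0293). So did edgeR without CybbKO ligated replicate 2 (adjusted p = 0.0225) or WT naive replicate 3 (0.0453). Without CybbKO ligated replicate 3 the log2 fold change was 0.54 (adjusted p = 0.280). In WT, Ptges had 17.4, 16.6 and 25.6 CPM in naive and 14.2, 22.2 and 24.3 CPM in ligated libraries, with a log2 fold change of 0.03 whose 95% interval ran from -0.56 to 0.62. A processed pseudogene, Gm13400, overlaps Ptges on the same strand, and how reads there were counted is not known.

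Hpgd (ENSMUSG00000031613; plus strand of chromosome 8, 56294585 to 56321043) had 192, 236 and 226 CPM in CybbKO naive and 142, 175 and 152 CPM in CybbKO ligated libraries, again without overlap. An unconfirmed transcript, Gm45540, overlaps Hpgd on the same strand, and how reads there were counted is not known either. The log2 fold change of Hpgd in libraries labelled CybbKO was -0.48 (standard error 0.18, adjusted p = 0.0991), and edgeR called it without WT naive replicate 3 (adjusted p = 0.0235). In WT it had 226, 237 and 144 CPM in naive and 177, 201 and 166 CPM in ligated libraries, and the lowest of these 6 values was that of WT naive replicate 3, the library rich in mucous gland transcripts. The part of those transcripts in the result was not tested. Over both genotypes the log2 fold change was -0.32 (standard error 0.13, adjusted p = 0.0832), and without that library it was -0.42 and called (adjusted p = 0.00723). The ratio of Ptges to Hpgd counts was 1.64-fold higher in ligated than in naive libraries (log2 0.71, exact permutation test, p = 0.075). Without WT naive replicate 3 the shift was 0.92 on the log2 scale (exact permutation test, p = 0.01). Leaving out any other library gave p = 0.055 to 0.16 (exact permutation test). The log2 shift was 0.15 in WT and 1.27 in libraries labelled CybbKO. With a library left out it ran from -0.098 to 0.57 in WT (without WT naive replicates 2 and 3). It was also below 0 there without WT ligated replicate 3 or WT naive replicate 1. In libraries labelled CybbKO it ran from 1.00 to 1.57 (without CybbKO ligated replicates 3 and 2). At the level of transcripts the synthase remained the scarcer of the pair in every library, with ratios of counts from 0.0643 to 0.285.

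Among the leukotriene genes, the activating protein was called and the lipoxygenase it serves was not. Alox5ap (ENSMUSG00000060063; plus strand of chromosome 5, 149264767 to 149288153) had 5.39, 3.95 and 5.39 CPM in WT naive and 7.57, 7.27 and 10.4 CPM in WT ligated libraries. It had 5.97, 4.19 and 6.497 CPM in CybbKO naive and 13.7, 15.9 and 13.2 CPM in CybbKO ligated libraries. Every ligated library lay above every naive library, and Alox5ap was the only one of the 10 genes of which this was true, against 11% of all genes. It rose 2.10-fold over both genotypes (log2 fold change 1.07, standard error 0.16, adjusted p = 0.000867) and 2.57-fold in libraries labelled CybbKO (log2 1.36, standard error 0.22, adjusted p = 0.00342). Both calls held with each library left out. In WT the difference was 0.77 on the log2 scale (standard error 0.22), which passed in DESeq2 (adjusted p = 0.0161) and not in edgeR (0.0795). An antisense gene, Gm19719, and an rRNA gene lie on the opposite strand.

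Alox5 itself (ENSMUSG00000025701; minus strand of chromosome 6, 116410077 to 116461178) was low and even in naive tissue, at 3.69 to 3.92 CPM in WT and 3.599 to 3.81 CPM in libraries labelled CybbKO. It had 2.49, 1.88 and 3.37 CPM in WT ligated libraries, all below WT naive, and 4.26, 2.84 and 3.08 CPM in CybbKO ligated libraries, which overlapped naive ones. Its log2 fold change over both genotypes was -0.34 (standard error 0.17, adjusted p = 0.170), with a 95% interval from -0.72 to 0.03. Lta4h (ENSMUSG00000015889; plus strand of chromosome 10, 93453411 to 93484875), the leukotriene B4 synthase, was the steadiest of the 10, with 88.4 ± 4.03 CPM (SD, n = 12). The 95% interval of its log2 fold change over both genotypes was -0.16 to 0.14, and its sign changed with the scaling. Ltc4s (ENSMUSG00000020377; minus strand of chromosome 11, 50236461 to 50238616) was near the limit of detection, with 3 to 26 counts per library. It had 3, 4 and 3 counts in WT naive and 10, 7 and 7 in CybbKO naive libraries, and 9, 4 and 13 counts in WT ligated and 14, 26 and 10 in CybbKO ligated libraries. Its log2 fold change over both genotypes was 0.94 (standard error 0.39, adjusted p = 0.0986).

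Neutrophil and macrophage markers were higher in ligated tissue, as Alox5ap and Ptgs2 were. All 8 neutrophil markers, led by S100a9, and all 9 macrophage markers, led by C1qb, were called higher over both genotypes, against 14.7% of all genes. The summed neutrophil level was 330 to 899 CPM in naive, 1315 to 3665 CPM in WT ligated and 2461 to 11550 CPM in CybbKO ligated libraries. The summed macrophage level was 53.5 to 81.1 CPM in naive, 90.6 to 126 CPM in WT ligated and 134 to 169 CPM in CybbKO ligated libraries. Within each ligated group, the library lowest in neutrophil markers, WT ligated replicate 1 and CybbKO ligated replicate 2, was also the lowest in Ptgs2. The same libraries were the lowest of their groups in the summed markers of macrophages, mast cells, eosinophils, platelets, fibroblasts and endothelium, and the highest in those of epithelium and cornified epithelium, so the match is not particular to neutrophils. For Alox5ap this did not hold, since CybbKO ligated replicate 2 had the highest level of the 12 libraries, 15.9 CPM. Of the 7 fibroblast markers, led by Col3a1, 6 were called higher, with sums of 1428 to 2965 CPM in naive and 3918 to 10470 CPM in ligated libraries. The 6 endothelial markers were all called higher too. Mast cells make cysteinyl leukotrienes, and of their 8 tested markers Hdc, the histidine decarboxylase, was called higher over both genotypes (log2 2.44, adjusted p = 0.00185) and Ms4a2 lower (-0.88, adjusted p = 0.0489), with a median of -0.01. Their summed level was 16.0 to 31.2 CPM in WT naive, WT ligated and CybbKO naive and 35.6 to 47.2 CPM in CybbKO ligated libraries, where Hdc alone averaged 20.1 CPM. The part of any of these cells in the changes was not tested.

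**Figure D3:**
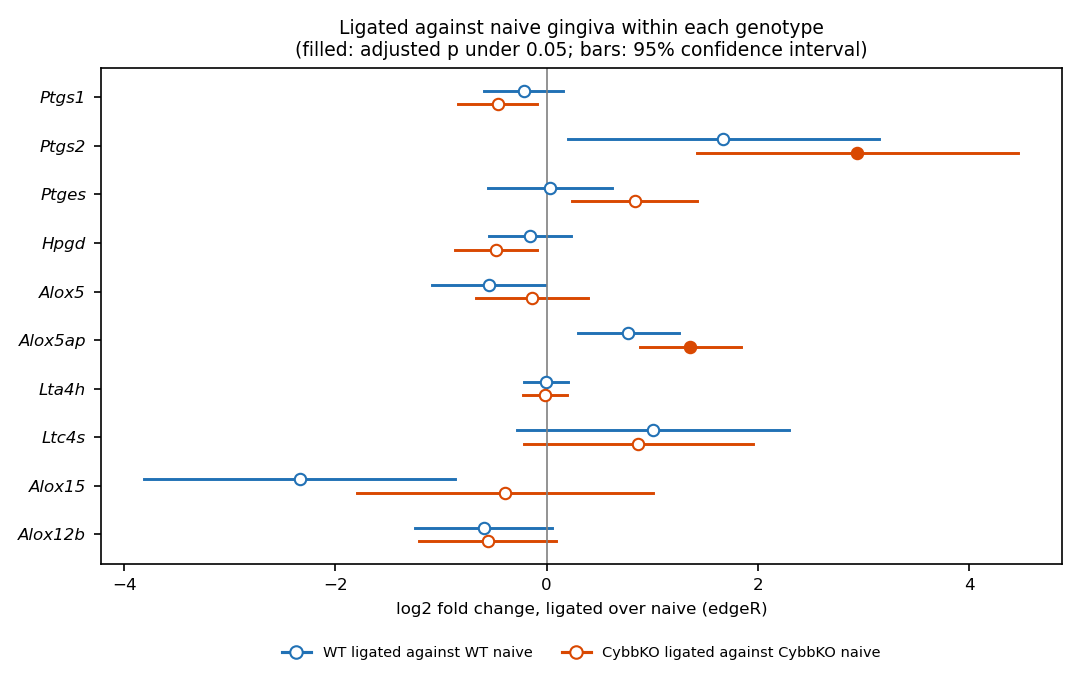
Log2 fold change of each gene between ligated and naive libraries from edgeR, in WT (blue) and in libraries labelled CybbKO (orange), with bars for 95% confidence intervals and filled points for an adjusted p under 0.05 (n = 3 libraries per group). Ptgs2 and Alox5ap are the filled points, both in libraries labelled CybbKO, and Alox15 in WT is the lowest point at -2.34.

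Alox15 was the least even of the 10 genes between naive libraries of a group, with a highest value 4.42 times the lowest in WT and 7.80 times in CybbKO naive libraries. In the ligated groups this was Ptgs2, at 5.37 and 4.92 times. The gene (ENSMUSG00000018924) lies on the minus strand of chromosome 11, from 70344152 to 70352031. It had 144, 48.5 and 32.6 CPM in WT naive and 12.3, 13.3 and 18.8 CPM in WT ligated libraries, which did not overlap. It had 10.5, 30.4 and 82.2 CPM in CybbKO naive and 22.9, 39.7 and 30.8 CPM in CybbKO ligated libraries, where the naive values enclosed the ligated ones. Over both genotypes it fell by 1.37 on the log2 scale (standard error 0.46, adjusted p = 0.0496). In WT alone the difference was -2.34 on the log2 scale (standard error 0.67; edgeR adjusted p = 0.0808, DESeq2 adjusted p = 0.0239), and edgeR called it without WT naive replicate 3 (-2.70, adjusted p = 0.0468). Without WT naive replicate 1 it was -1.45 (adjusted p = 0.215). In libraries labelled CybbKO it was -0.40 (standard error 0.64, adjusted p = 0.729), and 0.60 without CybbKO naive replicate 3. The call over both genotypes was lost without any 1 of 9 libraries. It was -0.93 without WT naive replicate 1 (adjusted p = 0.123) and -0.87 without CybbKO naive replicate 3 (0.148), the libraries with the highest values. The other 7 are WT ligated replicates 1, 2 and 3 (0.103, 0.0992 and 0.0726), CybbKO ligated replicates 1 and 3 (0.113 and 0.0967), WT naive replicate 2 (0.0590) and CybbKO naive replicate 2 (0.0574). Eosinophils are a known source of Alox15, and their 7 markers summed to 0.996 to 2.93 CPM in the libraries. Of these, 5 fell below the filter on low counts, among them Epx with 7 and Prg2 with 36 counts over the 12 libraries together. Of the other 2, Siglecf was called higher in ligated tissue over both genotypes (log2 1.98, adjusted p = 0.0197) at group means of 0.0559 to 0.383 CPM, and Ccr3, the most abundant, had -0.37 (adjusted p = 0.494). The part of eosinophils in the result was not tested.

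Alox12b, the barrier lipoxygenase (ENSMUSG00000032807; plus strand of chromosome 11, 69156989 to 69169792), was the most abundant of the 10 in CPM. It had 279, 478 and 289 CPM in WT naive and 322, 214 and 156 CPM in WT ligated libraries. It had 479, 274 and 352 CPM in CybbKO naive and 237, 302 and 213 CPM in CybbKO ligated libraries, and ligated and naive libraries overlapped in both genotypes. The log2 fold changes were -0.60 in WT and -0.56 in libraries labelled CybbKO, and over both genotypes -0.58 (standard error 0.21), which passed in DESeq2 (adjusted p = 0.0273) and not in edgeR (0.0659). EdgeR called it without WT ligated replicate 1 (adjusted p = 0.0266), CybbKO ligated replicate 2 (0.0461) or CybbKO naive replicate 2 (0.0469), and the value was -0.43, not called, without WT naive replicate 2. With a library left out it ran from -0.88 to -0.30 in WT (without WT ligated replicate 1 and WT naive replicate 2) and from -0.73 to -0.32 in libraries labelled CybbKO (without CybbKO naive replicates 2 and 1). The markers of cornified epithelium, led by Krt10, summed to 7677 to 13030 CPM in naive and 2714 to 5235 CPM in ligated libraries. Over both genotypes 4 of the 7 tested markers were called lower, against 9.66% of all genes. Their part in the difference was not tested.

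Between the genotypes, none of the 10 genes was called. In ligated tissue edgeR called 0 of the 10, against 0.00665% of all genes, which is Cybb alone, and DESeq2 called 0, against 0.0992%, while 3 had an unadjusted p under 0.05, against 3.34% of all genes. These were Ptgs1, Ptges and Alox5ap. Alox5ap was 1.70-fold higher in the libraries labelled CybbKO (log2 0.76, standard error 0.22, unadjusted p = 0.00429, adjusted p = 1.00), Ptges 1.56-fold higher (log2 0.65, standard error 0.27, unadjusted p = 0.0336) and Ptgs1 lower, at 0.711 of its WT level (log2 -0.49, standard error 0.17, unadjusted p = 0.0143). Without CybbKO ligated replicate 3 the difference of Ptges was 0.35 (unadjusted p = 0.202), and without WT ligated replicate 1 it was 0.43 (0.156). The libraries of the genotypes did not overlap for 3 of the 10, Ptgs1, Alox5ap and Alox15, against 7.84% of all genes (exact permutation p = 0.1 for each, the smallest possible). Ptgs2 was 2.49-fold higher with a 95% interval of the log2 fold change from -0.11 to 2.74, and the value in the fit of all libraries was 1.31 on that scale. Leaving out WT ligated replicate 3 raised it to 2.23, while leaving out CybbKO ligated replicate 3 or WT ligated replicate 1 lowered it to 0.89 or 0.91. The median log2 fold change of the 10 was 0.52, beside 0.01 over all genes tested, and 8 of the 10 lay on the higher side. These 8 include Lta4h at 0.01 and Alox12b at 0.12, whose signs turned when single libraries were left out. The share of all genes on the higher side was not counted.

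In naive tissue edgeR called 0 of the 10 genes between the genotypes, against 0.00665% of all genes, and DESeq2 called 0, against 0.011%. At an unadjusted p under 0.05 there were 0, against 2.03%. Ltc4s was the 1 gene whose libraries did not overlap, against 5.11% of all genes, on the 3 to 10 counts given above. The 95% intervals of the log2 fold change were -0.19 to 0.23 for Lta4h, -0.55 to 0.52 for Alox5 and -0.62 to 0.13 for Ptgs1, but -1.43 to 1.52 for Ptgs2 and -2.28 to 0.54 for Alox15, so these last genes were measured less precisely. The test of whether the ligature acted differently in the genotypes called 0 of the 10 in edgeR and in DESeq2, against 0.0% of all genes in each, with 0 at an unadjusted p under 0.05, against 2.27%. The difference of the log2 fold changes, libraries labelled CybbKO minus WT, was 1.94 for Alox15 (95% interval -0.06 to 3.94), 1.27 for Ptgs2 (-0.77 to 3.31), 0.80 for Ptges (-0.03 to 1.63) and 0.59 for Alox5ap (-0.09 to 1.26). Single libraries moved these differences: that of Alox15 was 1.05 without WT naive replicate 1 and 2.94 without CybbKO naive replicate 3, that of Ptgs2 was 0.59 without WT naive replicate 1 and 2.18 without WT ligated replicate 3, and that of Ptges was 0.51 without CybbKO ligated replicate 3. That Ptgs2 and Alox5ap passed in 1 genotype and not in the other is therefore no shown difference.

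**Figure D4:**
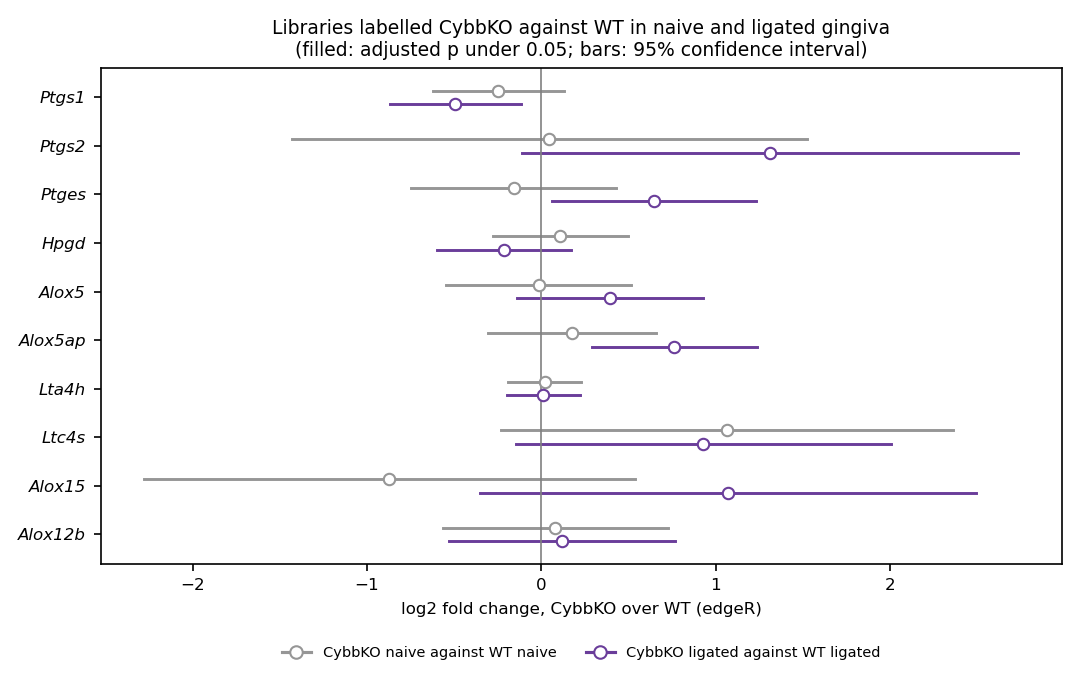
Log2 fold change of each gene between libraries labelled CybbKO and WT libraries from edgeR, in naive (grey) and ligated (purple) gingiva, with bars for 95% confidence intervals and open points for genes not called (n = 3 libraries per group). In ligated tissue 8 of the 10 points lie above 0, among them Lta4h at 0.01 and Alox12b at 0.12, and all 20 points are open.

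Around these 10 genes, 76 others of the same routes were found in the table, and 69 of them were tested. Over both genotypes 10 were called higher and 7 lower in ligated tissue, 24.6% of those tested, beside 24.4% of all genes. In libraries labelled CybbKO 6 were called higher and 4 lower, 14.5% against 13.0%. That count of 10 rested on single libraries: it was 3 without CybbKO ligated replicate 1 or CybbKO naive replicate 3, 5 without CybbKO ligated replicate 3 or CybbKO naive replicate 1 or 2, and 20 without CybbKO ligated replicate 2. In WT edgeR called 0, against 3.2% of all genes, and DESeq2 called 8 of 76, against 7.56%. In edgeR 15 of the 69 had an unadjusted p under 0.05, against 19.9%. The count of 0 became 4 without CybbKO ligated replicate 2 and 1 without WT ligated replicate 1 or WT naive replicate 3. Between the genotypes both tools called 0 in ligated tissue and 0 in naive tissue, while edgeR put 3 and 1 genes at an unadjusted p under 0.05, against 3.34% and 2.03% of all genes. All 17 genes called over both genotypes kept their direction under each alternative. Of 19 alternatives, Ptges2 was called in 6, Dpep1 in 10, Pla2g4f and Cmklr1 in 12, Tbxas1 in 13, Ptger2 in 15 and Ltb4r1 in 18, and the other 10 genes in each one run.

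Upstream of the cyclooxygenases, 14 genes of arachidonate release were tested, phospholipases and the phospholipase activator Plaa. In ligated tissue over both genotypes 2 were called lower, against 9.66% of all genes, and 0 higher, against 14.7%. Pla2g4f, the most abundant of them per length at 35.7 RPKM, fell by 0.50 on the log2 scale (adjusted p = 0.0244). Pla2g2d, a secreted phospholipase, was called with a log2 fold change of -2.18 (adjusted p = 0.00753) at group means of only 0.0508 to 0.439 CPM. Pla2g4a, the cytosolic phospholipase best known for arachidonate release, had 22.6 to 24.9 CPM in the 4 groups and a log2 fold change of 0.02. Among the other prostanoid synthases, Tbxas1, which makes thromboxane, rose (log2 0.88, adjusted p = 0.0280) and Ptges2, a constitutive prostaglandin E synthase, fell by 0.40 (adjusted p = 0.0485). Fam213b, a prostamide and prostaglandin F synthase and the most abundant of that list at 67.7 RPKM, differed by -0.30 (adjusted p = 0.258).

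Downstream, the prostaglandin transporter Slco2a1 rose from 44.3 to 71.0 CPM in WT means and from 39.7 to 91.8 CPM in means of libraries labelled CybbKO (log2 0.95 over both, adjusted p = 0.00130), without overlap of ligated and naive libraries. Cbr1, a carbonyl reductase that acts on prostaglandins, fell by 0.42 on the log2 scale (adjusted p = 0.00847), likewise without overlap, and Ptgr1, the most abundant of the inactivation genes at 175 RPKM, differed by -0.15 (adjusted p = 0.362). Of the 7 tested prostanoid receptors 1 was called, against 24.4% of all genes. It was Ptger2, a receptor of prostaglandin E2, with a log2 fold change of 1.37 (adjusted p = 0.0199). Ptger4, another receptor of prostaglandin E2, had 0.18 (adjusted p = 0.408), made of -0.24 in WT (0.546) and 0.59 in libraries labelled CybbKO (0.0786), a difference of 0.84 (standard error 0.29, adjusted p = 1.00), and Ptgfr, the most abundant at 3.30 RPKM, had 0.37 (adjusted p = 0.151).

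On the leukotriene side, both receptors of cysteinyl leukotrienes were called higher over both genotypes, Cysltr1 with a log2 fold change of 1.08 (adjusted p = 0.0120) and Cysltr2 with 1.17 (adjusted p = 0.0105), at group means of 0.398 to 2.53 CPM. Ltb4r1, the high-affinity receptor of leukotriene B4, fell by 0.33 on the log2 scale (adjusted p = 0.0139), from means of 38.7 and 39.8 CPM in naive to 29.2 and 33.5 CPM in ligated groups. Of the 10 other enzymes and transporters 3 were called higher, against 14.7% of all genes, and 1 lower, against 9.66%. Ggt5 and Dpep1, which trim cysteinyl leukotrienes, and Cyp4f18, a neutrophil enzyme that inactivates leukotriene B4, rose. Their log2 fold changes were 0.96, 0.53 and 1.22 (adjusted p = 0.0128, 0.0314 and 0.00816). Mgst3, a microsomal glutathione transferase, fell by 0.88 (adjusted p = 0.00566) without overlap. Dpep3 was called lower in libraries labelled CybbKO alone (log2 -1.50, adjusted p = 0.0485).

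The other lipoxygenases and the barrier route of Alox12b gave no call by edgeR in the ligature comparison over both genotypes, where it called 24.4% of all genes and DESeq2 24.9%. Of the 4 other lipoxygenases edgeR called 0, with 2 at an unadjusted p under 0.05, against 37.2% of all genes, and DESeq2 called 1. Alox12e, an epidermal lipoxygenase, had the largest difference among them (log2 -0.98, adjusted p = 0.0673) and Alox12, the most abundant at 44.6 RPKM, had -0.10. Aloxe3, which acts directly after Alox12b, had -0.39 (adjusted p = 0.108). Of the 10 other genes of the acylceramide route, 0 were called by either tool and 0 had an unadjusted p under 0.05, with log2 fold changes from -0.35 for Pnpla1 to 0.08 for Elovl4, the most abundant at 142 RPKM. Among 6 genes for receptors and ligands of pro-resolving signals, Fpr2, a formyl peptide and lipoxin receptor, rose (log2 2.45, adjusted p = 0.00147), Cmklr1, the chemerin and resolvin receptor, rose (0.67, adjusted p = 0.0270) and Lgr6, a maresin receptor, fell by 1.07 (adjusted p = 0.00120). Anxa1, a ligand of Fpr2 and the most abundant at 968 RPKM, had 0.29 (adjusted p = 0.354).

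**Figure D5:**
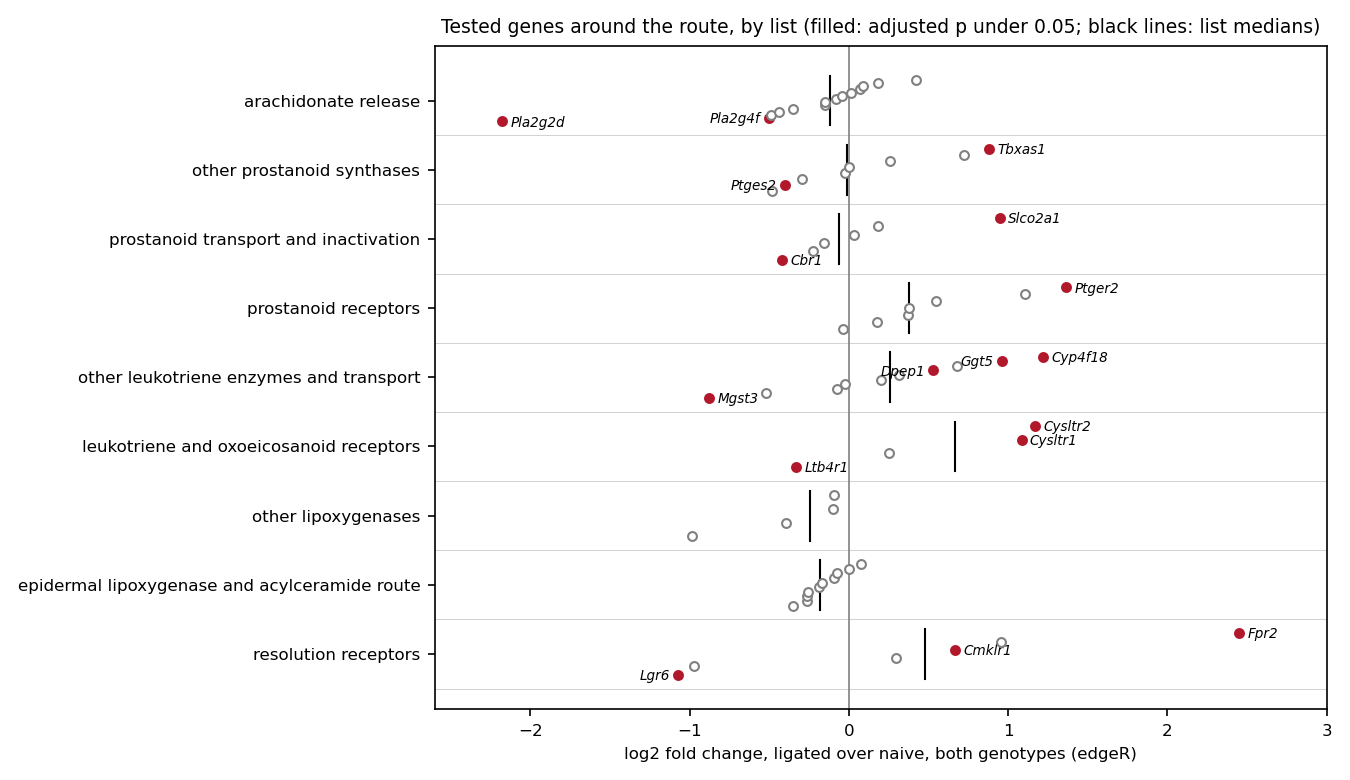
Log2 fold change between ligated and naive libraries over both genotypes for the 69 tested genes around the 10 enzymes, in 9 lists by role, with a point for each gene, filled where the adjusted p is under 0.05, and a black line at each list's median (n = 6 ligated and 6 naive libraries). The filled points are 10 genes to the right of 0 and 7 to the left, from Pla2g2d at -2.18 to Fpr2 at 2.45.

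For each of the 10, the 3 genes whose log2 CPM followed it most closely over the 12 libraries were taken as a description, by Pearson's r, with the 4 groups shared by all genes. Ptgs2 was followed by Lpxn (0.984), Tmem156 (0.977) and Tnfrsf9 (0.975), and Alox5ap by Itgb2, the common integrin chain of leukocytes (0.983), Themis2 (0.971) and Cdc42ep2 (0.964). Ptges was followed by Actn1 (0.949), Cap1 (0.931) and Pxdc1 (0.915), and Hpgd by Gm35315 (0.939), Tprkb (0.914) and Sdr16c5 (0.906). Alox12b was followed by Asprv1, a protease of the upper epidermis (0.970), Elovl1, an elongase of very long fatty acids (0.964), and Cars (0.963). The highest r was lower for the remaining genes: 0.887 for Alox5 with Dynap, 0.881 for Ptgs1 with Ctnnd2, 0.876 for Ltc4s with Ptprcap, 0.869 for Alox15 with Tmem237 and 0.836 for Lta4h with Eid2b. With 12 libraries and 15046 genes to choose from, high values of r arise for any gene.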

How the data were processed

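Gingival RNA of 12 mice was sequenced, 3 per group, after a stranded mRNA library preparation. The authors deposited raw counts, the reads counted on each Ensembl gene, with no normalization. The methods name STAR and featureCounts with reverse strand setting on GRCm38, and also both paired-end sequencing and single-end reads. The submitters' processing notes name FastQC 0.10.1 and HTSeq 0.10.0, so the counter is not settled here. Symbols, positions and exon lengths came from GENCODE M21 on GRCm38 (21939 genes matched, 26 not), and promoters from RefSeq.

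Counts were fitted in R 4.3.3 with edgeR 4.0.16 (quasi-likelihood F test, TMM, filterByExpr, 1 mean per group, all 12 libraries, Benjamini-Hochberg over 15046 genes, called at an adjusted p under 0.05). CPM are TMM-scaled, and RPKM are CPM per kilobase of merged exons. DESeq2 1.42.0, the tool the methods name, was an alternative. The other alternatives were DESeq2 size factors, library size alone, no filter, a minimum of 10 counts per library, a robust fit, the groups compared alone, a replicate block and each library left out. The procedure was tested on simulated data with the same changes put into both ligated groups. That test does not show how well differences between the genotypes are found. Ratios used a prior count of 0.5. Replicate numbers did not pair the samples. The biological coefficient of variation was 0.24, and the lowest-counted of the 10 genes was Ltc4s, with 3 to 26 counts per library. The 10 genes and all lists were chosen with earlier results of these data known. The text names all 10 genes, Cybb, the called, most abundant and most changed gene of each list around them, the most abundant of most marker lists and the most similar genes. Pla2g4a, Ptger4, Aloxe3, Epx, Prg2, Siglecf, Hdc, Ms4a2 and Plaa were added for their roles after their values were seen.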

Additional observations from a re-analysis of the deposited data

How the results depend on the processing

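Of the fold changes of the 10 genes, recomputed under up to 20 alternatives, 1079 values kept direction and side of the threshold, 18 were weaker, 18 stronger and 56 of opposite sign. The Lta4h fold change, near 0, turned under library size alone (0.10 in WT, 0.0701 in libraries labelled CybbKO, 0.0863 over both, -0.0154 between ligated genotypes), under at least 10 counts (0.0049, 0.0040 and 0.0045 for the first 3) and with the groups compared alone (0.0054 in libraries labelled CybbKO, -0.0087 between ligated genotypes). With a library left out, it ran from -0.0341 to 0.0274 in WT, -0.0525 to 0.0479 in libraries labelled CybbKO, -0.0298 to 0.0203 over both, -0.0271 to 0.0742 between ligated and -0.0081 to 0.0533 between naive genotypes, and its interaction from -0.0454 to 0.0552. Also with a library left out, the WT ligature change of Ptges ran from -0.12 to 0.27, that of Alox15 in libraries labelled CybbKO from -0.85 to 0.60, and Alox12b between ligated genotypes from -0.10 to 0.42. Between naive genotypes the ranges were -0.21 to 0.73 for Ptgs2, -0.27 to 0.0654 for Ptges, -0.0853 to 0.24 for Hpgd, -0.0319 to 0.0138 for Alox5, -1.87 to 0.0163 for Alox15 and -0.15 to 0.38 for Alox12b. The interaction ran from -0.26 to 0.33 for Alox12b and -0.66 to 0.28 for Ltc4s. The fall of Alox15 over both genotypes was also not called under library size alone (adjusted p = 0.0677), at least 10 counts (0.0536), a robust fit (0.0580) and the replicate block (0.0846). DESeq2 called 2 of the 10 in WT and 5 over both genotypes. It called 1372 genes in WT against 481, 18 between ligated genotypes against 1, and 2 between naive genotypes. The groups compared alone gave 0 genes between ligated genotypes. With a library left out, 27 to 900 genes were called in WT (27 without WT naive replicate 2, 900 without CybbKO ligated replicate 2), 837 to 2949 in libraries labelled CybbKO (without CybbKO ligated replicates 1 and 2), 0 to 2 between ligated genotypes and 0 to 1 for the interaction. The 10 genes gave 0 to 1 call in WT, 1 to 4 in libraries labelled CybbKO and 2 to 5 over both. The ratio of Ptges to Hpgd ran from 0.57 to 0.92. Same-numbered libraries did not deviate together (correlations -0.228 to 0.277). With the replicate number as a block, 271 genes were called in WT, 1573 in libraries labelled CybbKO and 2997 over both. Under the block Ptgs1 was called over both genotypes (adjusted p = 0.0275) and in libraries labelled CybbKO (0.0485), and the ratio of Ptgs2 to Ptgs1 (2.44) had an exact p of 0.0625. The cause of these shifts was not tested. Counting error weighs most on Ltc4s, with 3 to 26 counts per library.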
